A study of Mus musculus with 6 samples.

Results

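The CXC chemokines were followed after photodynamic treatment of LLC tumors, which grow from a mouse cell line of Lewis lung carcinoma. The group consists of 10 genes chosen by name, Cxcl1, Cxcl2, Cxcl3, Cxcl5, Ppbp, Pf4, Cxcl9, Cxcl10, Cxcl12 and Cxcl16, out of 21899 genes listed in the expression table. All 10 were present in the table, and 9 of them reached the mean of 1 FPKM that was required for testing. FPKM is the number of fragments counted on a gene, divided by the exon length of the gene and by the total of the sample, so that levels can be set side by side between genes. Luciferase-labelled LLC cells were grown under the skin of male C57BL/6 mice, whose age the labels do not give. The Laser group received saline and irradiation, the PC-La group received phycocyanin (PC), a light-absorbing protein of cyanobacteria, and in the SePC-La group this protein came from cells enriched in selenium (Se-PC). All 3 groups were irradiated, for 10 min at 620 nm per the labels, 4 h after the injection, with an injection every 5 days, and no unirradiated tumor was analysed here. Each group had 2 samples of whole tumor tissue, and the labels do not say whether they came from separate mice, so the p-values below measure the spread between these samples only.

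CXC chemokines are small secreted proteins named for a pair of cysteines that are separated by a single residue. Those that carry the residues Glu-Leu-Arg (ELR) directly before the cysteines, such as Cxcl1, Cxcl2, Cxcl3 and Cxcl5, act on the receptor Cxcr2 and recruit neutrophils, and they are known for promoting vessel growth. Ppbp, the precursor of platelet basic protein and of the neutrophil-activating peptide Cxcl7, and Pf4 (platelet factor 4, also called Cxcl4) are stored in the alpha granules of platelets, and Pf4 is also made by some mouse macrophages. Cxcl9 and Cxcl10 are induced by interferon gamma and attract T cells and NK cells through Cxcr3. Cxcl12 acts on Cxcr4 and is held by the scavenging receptor Ackr3, and Cxcl16 is a membrane-anchored ligand of Cxcr6 that can be shed by the protease Adam10.

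The fragments recovered from the table summed to between 14447792 and 17649490 per sample. Over all tested genes, the log2 values of the 2 PC-La samples correlated with each other at 0.992, those of the 2 SePC-La samples at 0.972 and those of the 2 Laser samples at 0.946, and Laser 1 lay closer to the PC-La samples (0.986 and 0.983) than to Laser 2. Laser 2 also held the highest summed level of 6 skeletal muscle genes, 124 FPKM against 1.48 to 19 in the other samples. The epithelial keratins Krt8 and Krt18 lay at 78.1 FPKM or above in every sample, while the lung epithelial genes Nkx2-1 and Scgb1a1 were listed at 0 in all and Sftpc at no more than 0.369. The epithelial gene Epcam reached at most 0.129 FPKM, and Vim lay at 742 FPKM or above in every sample. The fragments of a whole tumor come from many cell types, so that fewer cells of a type and less RNA per cell cannot be told apart in any result below.

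The features that divide this family can be read from the coding sequences, which were taken from the GENCODE M21 transcripts of mouse (build GRCm38) around the first pair of cysteine codons. Each stretch is 33 bases long and runs from 4 codons before the first cysteine to 4 codons after the second. Capitals mark the codons of both cysteines and, where it is present, of the ELR motif.
Cxcl1: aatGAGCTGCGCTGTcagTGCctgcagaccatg
Cxcl2: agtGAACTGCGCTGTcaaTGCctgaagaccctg
Cxcl3: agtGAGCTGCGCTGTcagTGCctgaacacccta
Cxcl5: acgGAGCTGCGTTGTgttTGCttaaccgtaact
Ppbp: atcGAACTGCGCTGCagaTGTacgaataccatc
Pf4: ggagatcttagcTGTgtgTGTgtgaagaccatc
Cxcl9: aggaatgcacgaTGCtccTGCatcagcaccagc
Cxcl10: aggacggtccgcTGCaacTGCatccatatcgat
Cxcl12: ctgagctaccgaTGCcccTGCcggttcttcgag
Cxcl16: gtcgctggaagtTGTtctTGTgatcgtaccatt
The ELR codons were present in 5 of the genes, including Ppbp, and absent in the other 5, including Pf4. The coding region was 288 bases long in Cxcl1, 300 in Cxcl2 and Cxcl3, 339 in Ppbp, 315 in Pf4 and 738 in Cxcl16. Cxcl2 and Cxcl3 are close copies, and 5.84% of the 50-base windows in the Cxcl2 transcripts also occur in another gene, which was Cxcl3, against none for Cxcl1, Ppbp and Pf4. Their counts may therefore share a small part of their fragments.

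Most of the family lies in a single stretch of chromosome 5 (GRCm38). Cxcl5 (chr5:90759360-90761624) is followed after 6.89 kb by Ppbp (chr5:90768518-90770063), after a further 2.37 kb by Pf4 (chr5:90772435-90773383) and after 12.7 kb by Cxcl3 (chr5:90786103-90789600). Cxcl1 (chr5:90891241-90893115) and Cxcl2 (chr5:90903871-90905938) lie 10.8 kb apart further along the same strand. Cxcl9 (chr5:92321347-92328079) and Cxcl10 (chr5:92346638-92348889) are neighbours on the opposite strand, 18.6 kb apart. Cxcl12 (chr6:117168535-117181367) and Cxcl16 (chr11:70453983-70459984) lie elsewhere. The labels name the build mm9, whereas the exon lengths that turn the table into whole fragments are those of GENCODE M21, so the coordinates are given on GRCm38.

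Promoter sequence was available for 8 of the 10 genes in the RefSeq table (GRCm38.p6). The window from 200 to 31 bases before the transcript start was searched on both strands for 3 short motifs, which were the κB consensus bound by NF-κB factors, GAAANNGAAA, bound by interferon regulatory factors, and TTCNNNGAA, bound by STAT factors. The windows of the 3 neutrophil-recruiting chemokines at the criterion together in SePC-La against PC-La are shown with that of Cxcl10, since these 4 held a κB match, and with those of the neighbours Ppbp and Pf4, which held none of the motifs. Capitals mark κB matches, and every sequence runs 5′ to 3′ on the strand of the gene.
Cxcl1 (chr5:90891045-90891214, plus strand): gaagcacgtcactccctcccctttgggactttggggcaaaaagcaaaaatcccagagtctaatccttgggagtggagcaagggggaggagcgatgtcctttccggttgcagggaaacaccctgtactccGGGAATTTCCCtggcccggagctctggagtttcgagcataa
Cxcl2 (chr5:90903699-90903868, plus strand): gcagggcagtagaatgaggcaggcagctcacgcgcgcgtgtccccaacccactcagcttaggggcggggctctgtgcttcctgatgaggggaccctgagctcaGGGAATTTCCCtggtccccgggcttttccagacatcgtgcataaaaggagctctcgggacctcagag
Cxcl3 (chr5:90785901-90786070, plus strand): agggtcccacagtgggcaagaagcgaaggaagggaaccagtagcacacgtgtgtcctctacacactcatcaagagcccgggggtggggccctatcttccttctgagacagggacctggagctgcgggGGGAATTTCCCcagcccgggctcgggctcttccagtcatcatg
Cxcl10 (chr5:92348920-92349089, minus strand): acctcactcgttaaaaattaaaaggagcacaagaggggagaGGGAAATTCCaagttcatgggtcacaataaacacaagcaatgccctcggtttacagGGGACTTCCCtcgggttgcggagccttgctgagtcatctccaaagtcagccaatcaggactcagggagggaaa
Ppbp (chr5:90768318-90768487, plus strand): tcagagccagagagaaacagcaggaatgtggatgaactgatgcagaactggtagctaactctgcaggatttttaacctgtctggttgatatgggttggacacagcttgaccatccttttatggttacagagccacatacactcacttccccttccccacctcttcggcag
Pf4 (chr5:90772235-90772404, plus strand): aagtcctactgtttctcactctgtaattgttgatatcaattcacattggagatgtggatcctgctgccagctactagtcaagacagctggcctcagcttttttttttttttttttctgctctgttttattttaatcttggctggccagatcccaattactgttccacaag
The same 11 letters, a κB match on each strand shifted by a single base, stood at 71 bases before the start in Cxcl1, 97 in Cxcl2 and 73 in Cxcl3. Cxcl10 held 2 separate matches, starting 159 and 103 bases before the start. Of all 32851 promoter windows in the table, 2.72% held a κB match, 1.92% held GAAANNGAAA and 4.73% held TTCNNNGAA. The windows of Cxcl9 and Cxcl12 held none of the 3 motifs, which says only that these letters are not in that stretch.

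Differences between the groups were tested with limma on log2(FPKM + 1) over 10853 genes, and a gene was counted when its log2 fold change exceeded 1 in size and its unadjusted p lay under 0.05, the criterion used by the study. PC-La against Laser had 5 of the 9 tested chemokines at the criterion, which were Cxcl9, Cxcl10 and Cxcl16, higher in PC-La, and Ppbp and Pf4, lower in PC-La. Of all genes tested, 1.29% met it there, 0.866% higher and 0.424% lower. SePC-La against Laser had 1, Cxcl1, higher in SePC-La, beside 0.682% of all genes, 0.544% higher. SePC-La against PC-La had 5, all higher in SePC-La, which were Cxcl1, Cxcl2, Cxcl3, Ppbp and Pf4, beside 2.98% of all genes, 1.18% higher.

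No gene passed a Benjamini-Hochberg adjusted p of 0.05 over all genes in limma, where the smallest values were 0.406, 0.376 and 0.0649 in the 3 comparisons, and 627, 1318 and 2637 genes had an unadjusted p under 0.05. In limma's voom fit of the recovered fragments, added after the data were seen, the smallest adjusted p was 0.458, 0.319 and 0.078, and again no gene passed. Each of these statements rests on a spread that is shared with the 2 dissimilar Laser samples. When only the 4 samples of SePC-La and PC-La were fitted, 5.87% of all genes had an adjusted p under 0.05 in limma, and among them were Ppbp (0.00936), Cxcl3 (0.00943), Cxcl2 (0.0189), Pf4 (0.026) and Cxcl1 (0.0381). Both comparisons with Laser share the same 2 control samples. An exact permutation test of 2 samples against 2 cannot go below 0.333, so none was run.

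**Figure D1:**
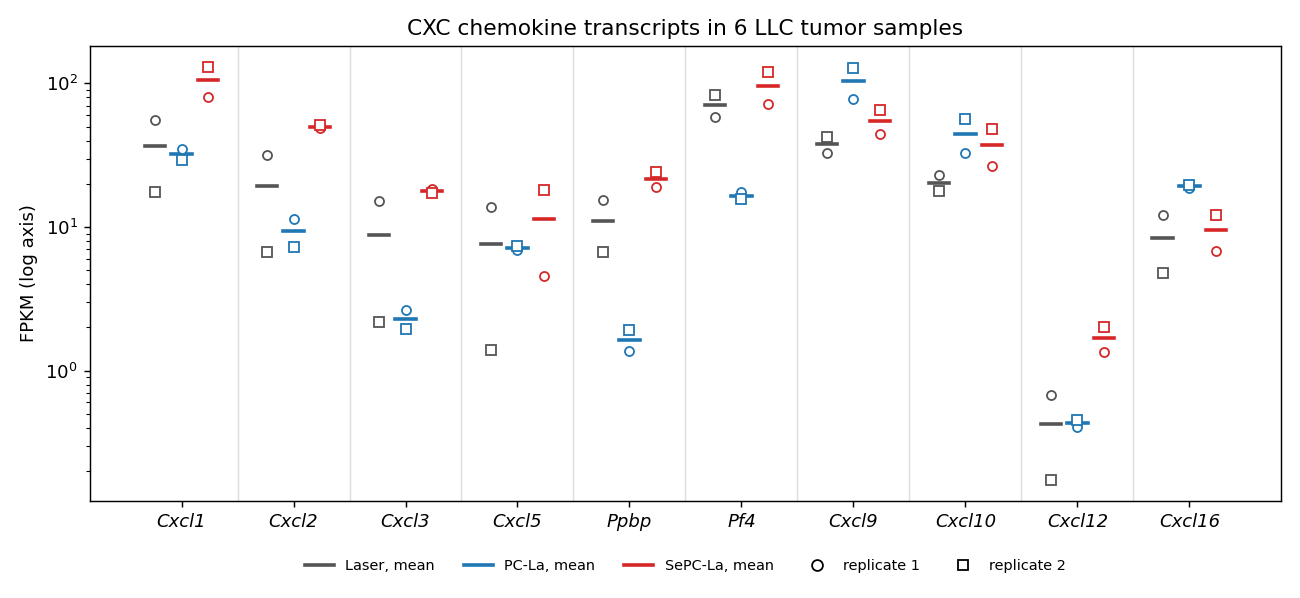
Level of each CXC chemokine in FPKM on a log axis, with Laser in grey, PC-La in blue and SePC-La in red. Circles are replicate 1, squares replicate 2 and bars the mean of both, and a reader should see Pf4 at 17.4 and 15.6 FPKM in PC-La, under every other sample, and the wide gap between the 2 Laser samples in Cxcl1, Cxcl2, Cxcl3 and Cxcl5.

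The order of the transcripts differed between the groups. In Laser the mean level was highest for Pf4 (70.8 ± 17.1 FPKM, SD, n = 2), followed by Cxcl9 (37.7 ± 7.01) and Cxcl1 (36.5 ± 27), and the samples of the last pair overlapped. The PC-La tumors had Cxcl9 at the top with 103 ± 36.2 FPKM, then Cxcl10 with 44.8 ± 16.7 and Cxcl1 with 32 ± 4.19, where the samples of Cxcl10 and Cxcl1 overlapped, and Pf4 stood at 16.5 ± 1.29. SePC-La was led by Cxcl1 with 106 ± 36.1 FPKM and Pf4 with 96.8 ± 34.5, which overlapped, and Cxcl9 (55 ± 14.7) and Cxcl2 (49.8 ± 1.63) followed, also overlapping. Cxcl12 was the lowest of the 10 in every group.

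Pf4 and Ppbp, the chemokines that platelets store, were lower in PC-La than in Laser, and SePC-La did not share this difference. Pf4 had 58.7 and 82.9 FPKM in the Laser pair, 17.4 and 15.6 in the PC-La pair, and 72.4 and 121 in the SePC-La pair. Both PC-La samples lay below all 4 others, and the ranges of Laser and SePC-La overlapped. The mean in PC-La was 0.233 of that in Laser, a log2 fold change of -2.02 (SE 0.28, 95% interval -2.70 to -1.34, adjusted p = 0.406 in limma). Against PC-La, the SePC-La mean was 5.87 times as high, with a log2 fold change of 2.44 (SE 0.28, 95% interval 1.76 to 3.12, adjusted p = 0.0763 in limma).

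Ppbp had 15.4 and 6.7 FPKM in the Laser pair, 1.36 and 1.91 in the PC-La pair, and 19 and 24.1 in the SePC-La pair. The 3 groups did not overlap at all, with PC-La lowest and SePC-La highest, as PC-La and SePC-La lay on opposite sides of Laser in 8.56% of all genes. These levels rest on 23 and 31 fragments in PC-La, 263 and 128 in Laser, and 297 and 455 in the SePC-La pair. On the log2 scale the fold change was -2.10 in PC-La against Laser (SE 0.36, adjusted p = 0.43 in limma), where the mean was 0.148 of the Laser mean. In SePC-La against Laser it was 0.99 (SE 0.36, adjusted p = 0.388), just under the fold of the criterion. It met the criterion with a pseudocount of 0.1 (1.06), with median-ratio scaling (1.07), with quantile normalization (1.01) and with voom (1.11). The value stayed at 0.99, short of the criterion, without the filter, with a minimum mean of 5, and without trend or robust estimation. It was also 0.99 with only the 4 compared samples fitted (unadjusted p = 0.0558 in limma) and when samples of equal number were blocked (0.0565). Leaving out a sample gave 1.54 without Laser 1, 0.44 without Laser 2, 1.16 without SePC-La 1 and 0.83 without SePC-La 2. SePC-La against PC-La gave 3.09 (SE 0.36, 95% interval 2.20 to 3.98, adjusted p = 0.0868), with a mean 13.2 times that of PC-La. Without Laser replicate 1 the fold change of Ppbp in PC-La against Laser was -1.55, and without Laser replicate 2 it was -2.65. In the fit without Laser replicate 1, 2.87% of all genes had an adjusted p under 0.05 for PC-La against Laser, and Pf4 (0.0344) and Ppbp (0.0357) were among them.

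The platelet label was checked against 14 other genes of platelets and megakaryocytes. Their summed level was 11.2 and 9.21 FPKM in the Laser pair, 9.82 and 11.5 in the PC-La pair, and 8.47 and 9.24 in the SePC-La pair, so that Pf4 alone exceeded the sum of the list in every sample. Gp1bb, a subunit of the receptor for von Willebrand factor, was listed at 0 in all 6 samples, Gp6 reached at most 0.00971 FPKM, Tubb1, a tubulin of megakaryocytes, 0.246, and Gp9 0.322. Of the list, 4 genes reached the filter, and none of these met the criterion in any comparison in limma, with 1, Clec1b, at an unadjusted p under 0.05 in SePC-La against PC-La. In voom Clec1b met it as lower in SePC-La against each of the other groups. The most abundant were P2ry12 and Itgb3, which macrophages, microglia or endothelial cells also use, and Clec1b and Vwf. P2ry12, a receptor for ADP, had 3.37 and 3.05 FPKM in the Laser pair, 3.39 and 3.44 in the PC-La pair, and 0.625 and 2.65 in the SePC-La pair. The summed level of the platelet list did not stand in the order of Ppbp and Pf4, and several genes that define platelets were at or near 0, so the pair is named here by its genes. Among these low genes Gp9, a platelet glycoprotein, had 0.217 and 0.322 FPKM in the Laser pair, 0.0726 and 0 in the PC-La pair, and 0.0786 and 0.26 in the SePC-La pair. PC-La was lowest as for Pf4, but no sample held more than 5 fragments, and PC-La 1 and SePC-La 1 held 1 each. Selp, the adhesion receptor P-selectin, was lower in both PC-La samples (0.145 and 0.318) than in both Laser samples (0.533 and 0.385), and SePC-La (0.282 and 0.597) overlapped PC-La. Unlike Pf4, Itga2b was higher in PC-La (1.28 and 0.907) than in SePC-La (0.546 and 0.756). Gp1ba was likewise higher in PC-La (0.259 and 0.221) than in SePC-La (0.127 and 0.19), and in both genes PC-La overlapped Laser. None of these genes reached the filter.

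Levels of other cell types were set beside Pf4 and Ppbp in the same way. The 12 macrophage genes, led by Lyz2, C1qa, C1qb and C1qc, summed to 1368 and 2130 FPKM in the Laser pair, 1630 and 1775 in the PC-La pair, and 1001 and 1502 in the SePC-La pair. None was at the criterion in PC-La against Laser in limma, with 1, Aif1, at an unadjusted p under 0.05 and at the criterion as higher in voom. In SePC-La against PC-La 2 were at the criterion in limma, both lower, beside 1.80% of all genes. As a percentage of this sum, Pf4 was 4.29 and 3.89 in the Laser pair, 1.07 and 0.877 in the PC-La pair, and 7.23 and 8.06 in the SePC-La pair, and on this scale its 3 groups did not overlap. Ppbp on the same scale was 1.13 and 0.314 in the Laser pair, 0.0834 and 0.108 in the PC-La pair, and 1.9 and 1.6 in the SePC-La pair. Much of the macrophage sum came from Lyz2, with 681 and 1409 FPKM in the Laser pair. In PC-La against Laser 8 of the list were higher without overlap, beside 20.4% of all genes, and 1, Mrc1, was lower, beside 21.6%. Mrc1 had 26.7 and 29.7 FPKM in the Laser pair, 14.5 and 14.3 in the PC-La pair, and 10.4 and 29.5 in the SePC-La pair. The 5 erythroid genes summed to 127 and 13.6 FPKM in the Laser pair, 263 and 361 in the PC-La pair, and 613 and 932 in the SePC-La pair. This sum was higher in PC-La than in Laser, unlike Pf4 and Ppbp, and highest in SePC-La, like Ppbp. The part of these cells in the levels of Pf4 and Ppbp was not tested.

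**Figure D2:**
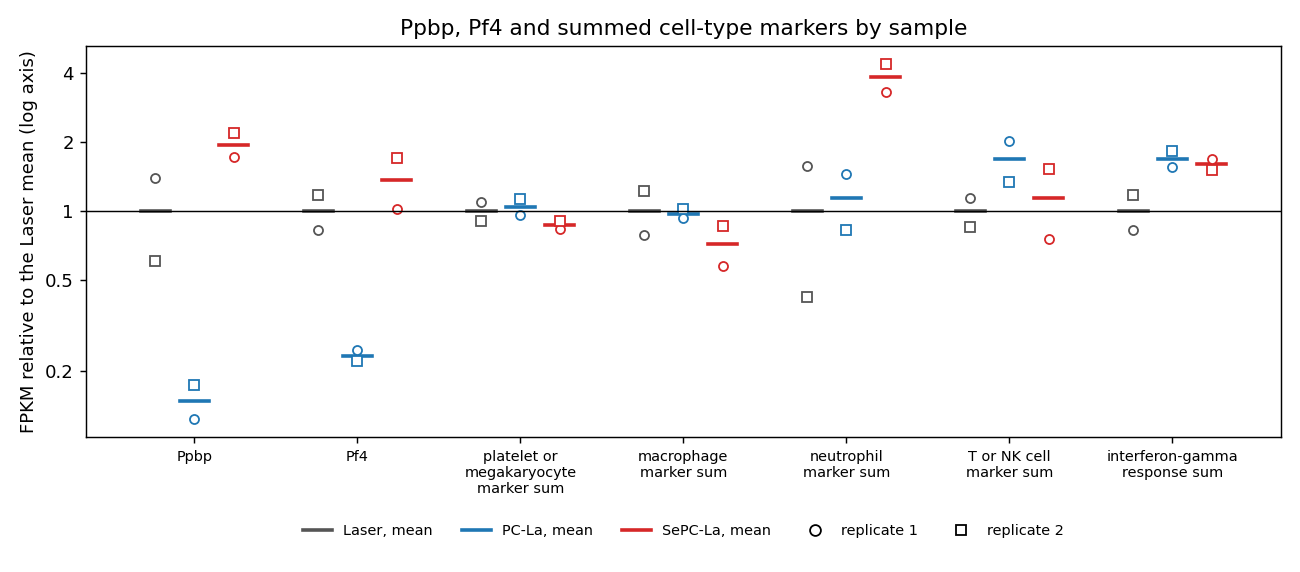
Ppbp, Pf4 and the summed FPKM of 5 marker lists in each sample, each divided by its own Laser mean and drawn on a log axis. Bars are group means, circles replicate 1 and squares replicate 2. Ppbp and Pf4 lie at 0.148 and 0.233 of the Laser mean in PC-La, while the platelet marker sum stays between 8.47 and 11.5 FPKM in every sample and the neutrophil sum is highest in SePC-La.

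Among the ELR chemokines of the Cxcr2 receptor, Cxcl1, Cxcl2 and Cxcl3 were highest in SePC-La. Cxcl1, the mouse homologue of the human GRO chemokines, had 55.6 and 17.4 FPKM in the Laser pair, 35 and 29.1 in the PC-La pair, and 80.4 and 131 in the SePC-La pair. Both SePC-La samples lay above all others, and the PC-La values lay between those of the 2 Laser samples. The log2 fold change was 1.68 in SePC-La against Laser (SE 0.55, adjusted p = 0.385 in limma) and 1.66 against PC-La (SE 0.55, adjusted p = 0.169). In PC-La against Laser it was 0.03, with a 95% interval from -1.37 to 1.42. Against Laser the value in SePC-La rested on which control sample was used, at 2.49 without Laser replicate 1 and 0.88 without Laser replicate 2. When SePC-La 2 was left out it was 1.33 and no longer met the criterion. With only the 4 samples of Laser and SePC-La fitted, its unadjusted p in limma was 0.0602 and the call was lost.

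Cxcl2, also known as MIP-2, had 31.6 and 6.74 FPKM in the Laser pair, 11.4 and 7.27 in the PC-La pair, and 48.7 and 51 in the SePC-La pair. Cxcl3 had 15.3 and 2.19 FPKM in the Laser pair, 2.65 and 1.95 in the PC-La pair, and 18.3 and 17.2 in the SePC-La pair. In both genes the SePC-La samples agreed closely and lay above every other sample, while Laser 1 stood well above Laser 2 and both PC-La samples. SePC-La against PC-La gave log2 fold changes of 2.32 for Cxcl2 (SE 0.68, adjusted p = 0.151 in limma) and 2.51 for Cxcl3 (SE 0.75, adjusted p = 0.153), with means 5.32 and 7.71 times as high. Against Laser the same group had values of 1.68 (adjusted p = 0.413) and 1.38 (adjusted p = 0.499), and neither met the criterion. Without Laser replicate 1 these became 2.71 and 2.56. Without Laser replicate 2 they were 0.64 and 0.20. The difference between PC-La and Laser was -0.65 for Cxcl2 (95% interval -2.37 to 1.08) and -1.14 for Cxcl3 (-3.04 to 0.77), and it turned to 0.39 and 0.04 when Laser 1 was left out, while both genes were at the criterion as lower in PC-La when Laser 2 was left out (-1.68 and -2.31). The calls of Cxcl2 and Cxcl3 in SePC-La against PC-La were lost when any of the 4 compared samples was left out, at fold changes of 2.03 to 2.62 and 2.36 to 2.67 and unadjusted p of 0.0553 to 0.111 and 0.0555 to 0.109. Cxcl1 lost the same call without PC-La replicate 1, PC-La replicate 2 or SePC-La replicate 2, at 1.31 to 1.79.

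Cxcl5, which epithelial cells and fibroblasts make in inflammation, met the criterion in no comparison. It had 13.8 and 1.4 FPKM in the Laser pair, 6.87 and 7.42 in the PC-La pair, and 4.57 and 18 in the SePC-La pair. All 3 groups overlapped, and the replicates of Laser and of SePC-La differed more than the group means. The log2 fold changes were 0.45 in PC-La against Laser, 0.79 in SePC-La against Laser and 0.34 in SePC-La against PC-La, each with SE 1.03, so that a difference of the size seen for Cxcl2 lay within the interval of the last (-2.35 to 3.03). Without Laser replicate 1 the value in SePC-La against Laser was 2.10 and met the criterion.

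The summed level of neutrophil genes, which mark the cells that these chemokines attract, was highest in the same samples. The 13 genes of the list summed to 176 and 46.9 FPKM in the Laser pair, 162 and 92.4 in the PC-La pair, and 370 and 490 in the SePC-La pair, led by S100a9, S100a8, Retnlg and Csf3r, and none was at 0 in all samples. S100a9, a calcium-binding protein abundant in neutrophils, had 104 and 14.1 FPKM in the Laser pair, 96.8 and 52.5 in the PC-La pair, and 226 and 300 in the SePC-La pair. Not every gene of the list followed the sum. Ngp had 0 and 0.0464 FPKM in the Laser pair, 0.733 and 0.602 in the PC-La pair, and 0.17 and 1.73 in the SePC-La pair. In Ltf and Ly6g too, SePC-La 1 lay below a PC-La sample, while Camp was highest in both SePC-La samples. Ngp, Ltf, Ly6g and Camp lay below the filter. Trem1, which was tested, was lower in SePC-La 1 than in Laser 1. Of 9 tested, 5 met the criterion as higher in SePC-La against Laser, beside 0.544% of all genes, and 6 in SePC-La against PC-La, beside 1.18%. None met it in PC-La against Laser in limma or voom, and there 1, Clec4e, had an unadjusted p under 0.05 in limma. Relative to this sum, Cxcl1 was 31.6% and 37.2% in the Laser pair, 21.6% and 31.5% in the PC-La pair, and 21.7% and 26.8% in the SePC-La pair. Both Laser samples lay above the others on this scale, Laser 1 only narrowly above PC-La 2, and PC-La and SePC-La overlapped. Cxcl2 was 18% and 14.4% in the Laser pair, 7.08% and 7.87% in the PC-La pair, and 13.2% and 10.4% in the SePC-La pair. The scaled level of Cxcl3 was likewise lower in PC-La (1.64% and 2.11%) than in SePC-La (4.95% and 3.51%) and Laser (8.71% and 4.66%). Laser 1 and Laser 2 differed in the neutrophil sum in the same direction as in Cxcl1, Cxcl2 and Cxcl3. The part of neutrophil number in these levels was not tested.

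**Figure D3:**
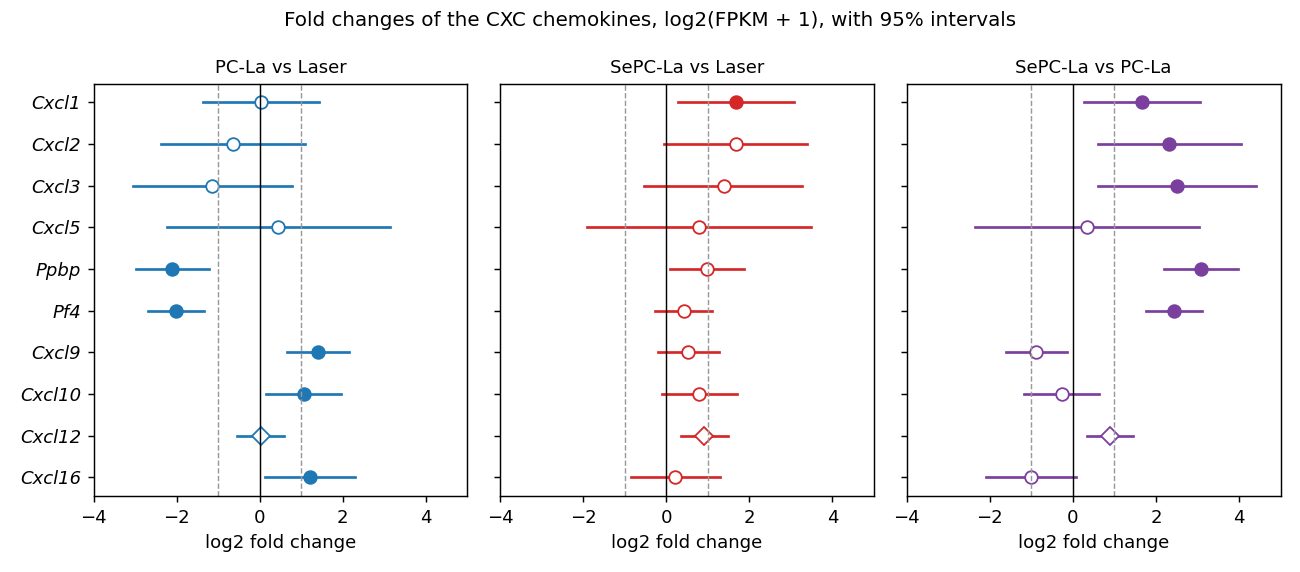
Log2 fold changes of the CXC chemokines on the log2(FPKM + 1) scale in the 3 comparisons, with 95% intervals as lines. Filled symbols met the criterion, dashed lines mark a log2 fold change of -1 and 1, and the diamond is Cxcl12, taken from the fit without the filter on low values. Ppbp and Pf4 lie near -2 in PC-La against Laser (-2.10 and -2.02) and at 3.09 and 2.44 in SePC-La against PC-La.

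The interferon-induced ligands of Cxcr3 were higher in PC-La than in Laser. Cxcl9 (MIG) had 32.7 and 42.6 FPKM in the Laser pair, 77.8 and 129 in the PC-La pair, and 44.6 and 65.5 in the SePC-La pair. The 3 groups did not overlap, with Laser lowest and PC-La highest. Its log2 fold change was 1.40 in PC-La against Laser (SE 0.30, 95% interval 0.66 to 2.14, adjusted p = 0.547 in limma), 0.52 in SePC-La against Laser (SE 0.30, adjusted p = 0.508) and -0.88 in SePC-La against PC-La (SE 0.30, adjusted p = 0.167), the last short of the fold of the criterion. It met the criterion there without PC-La replicate 1 (-1.24) and without SePC-La replicate 2 (-1.15).

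Cxcl10 (IP-10) had 22.9 and 17.8 FPKM in the Laser pair, 33 and 56.6 in the PC-La pair, and 26.5 and 48.2 in the SePC-La pair. Both treated groups lay above Laser and overlapped each other. The log2 fold change was 1.06 in PC-La (SE 0.36, adjusted p = 0.753 in limma) and 0.80 in SePC-La (SE 0.36, adjusted p = 0.437), each against Laser, and the difference between the treated groups was -0.27 with a 95% interval from -1.17 to 0.63. The call in PC-La was lost without PC-La replicate 2 (0.68) and without Laser replicate 2 (0.89), and in SePC-La against Laser 1 was gained without SePC-La replicate 1 (1.22). Cxcl10 shares 133 exon bases on the opposite strand with Art3, which reached at most 0.778 FPKM.

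Genes that respond to interferon gamma were set beside them. The 10 of the list summed to 256 and 363 FPKM in the Laser pair, 483 and 565 in the PC-La pair, and 524 and 466 in the SePC-La pair, led by Gbp2, Igtp, Gbp3 and Irf1. In PC-La against Laser 3 met the criterion as higher, beside 0.866% of all genes, and all 10 were higher without overlap, beside 20.4% of all genes. In SePC-La against Laser 1 met it as higher, beside 0.544% of all genes, and 9 were higher without overlap, beside 15.0% of all genes. As a percentage of this sum, Cxcl9 was 12.8 and 11.8 in the Laser pair, 16.1 and 22.8 in the PC-La pair, and 8.52 and 14 in the SePC-La pair. The 11 genes of T cells and NK cells, led by Gzmb, Nkg7, Prf1 and Cd8b1, summed to 32.8 and 24.5 FPKM in the Laser pair, 58.1 and 38.5 in the PC-La pair, and 21.6 and 43.9 in the SePC-La pair, and none of 7 tested met the criterion in any comparison in limma or voom, with 1 at an unadjusted p under 0.05 in PC-La against Laser and 1 in SePC-La against PC-La. Their part in the levels of Cxcl9 and Cxcl10 was not tested.

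Cxcl16, the transmembrane ligand of Cxcr6, had 12.1 and 4.76 FPKM in the Laser pair, 18.7 and 19.7 in the PC-La pair, and 6.78 and 12.2 in the SePC-La pair. The PC-La samples agreed closely and lay above all others, and Laser and SePC-La overlapped. Its log2 fold change in PC-La against Laser was 1.22 (SE 0.43, adjusted p = 0.753 in limma), and the call was lost without Laser replicate 2 (0.63), without PC-La replicate 1 (1.26, with an unadjusted p of 0.101) and without PC-La replicate 2 (1.18, with an unadjusted p of 0.118). The mean in SePC-La was 0.494 of that in PC-La, with a 95% interval of the log2 fold change from -2.08 to 0.08 (adjusted p = 0.229 in limma), and without SePC-La replicate 2 this fold change was -1.38 and met the criterion. Cxcl16 shares 552 exon bases on the opposite strand with Zmynd15, which had 4.24 and 0.964 FPKM in the Laser pair, 4.03 and 5.14 in the PC-La pair, and 2.65 and 1.81 in the SePC-La pair, and 16.9% of its 50-base windows occur in that gene. How the counting treated strand is not given in the sources used here, so fragments of the overlap cannot be assigned to either gene. The summed level of 8 genes of fibroblasts and mural cells, led by Col3a1, Lum, Dcn and Pdgfra, was highest in PC-La too, with sums of 1247 and 288 FPKM in the Laser pair, 1722 and 1573 in the PC-La pair, and 122 and 636 in the SePC-La pair, and their part in Cxcl16 was not tested. Col1a1 and Col1a2 of this list had their highest value in SePC-La 2 instead.

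Cxcl12, which stromal cells make and which retains cells bearing Cxcr4, was the gene below the filter. It had 0.677 and 0.173 FPKM in the Laser pair, 0.407 and 0.45 in the PC-La pair, and 1.35 and 2 in the SePC-La pair, from 25 to 286 fragments. Both SePC-La samples lay above all others. In a fit without the filter the log2 fold change was 0.92 in SePC-La against Laser (SE 0.22, adjusted p = 0.494 in limma) and 0.90 against PC-La (SE 0.22, adjusted p = 0.2), on a scale where the added 1 FPKM takes up most of so low a level. The ratio of mean FPKM was 3.95 against Laser and 3.92 against PC-La. The exon length used for the gene, 8176 bases, exceeds its longest transcript of 5627 bases, and its level per length is therefore understated relative to the other members. The 7 endothelial genes, led by Cdh5, Pecam1, Esam and Egfl7, summed to between 22.4 and 38 FPKM, and none of 6 tested met the criterion in any comparison in limma or voom, with 2 at an unadjusted p under 0.05 in limma in SePC-La against Laser.

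Of 5 further CXC ligands, 4 were in the table and 1, Cxcl14, was tested. Cxcl14, a chemokine of epithelial cells and fibroblasts, had 1.08 and 0.868 FPKM in the Laser pair, 4.59 and 4.43 in the PC-La pair, and 0.796 and 1.85 in the SePC-La pair. The PC-La samples lay above all others. It met the criterion in PC-La against Laser, with a log2 fold change of 1.48 (SE 0.24, adjusted p = 0.419 in limma), and in SePC-La against PC-La, with -1.28 (SE 0.24, adjusted p = 0.126). Cxcl13, a ligand for B cells, and Cxcl17 reached at most 0.149 and 0.091 FPKM, Cxcl15 was listed at 0 in all samples, and Cxcl11 was not listed under that symbol.

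Of the 8 receptors, 5 were tested and 1, Ackr3, met the criterion. Ackr3, the scavenging receptor of Cxcl12, had 8.46 and 4.2 FPKM in the Laser pair, 3.4 and 2.89 in the PC-La pair, and 17.5 and 12.8 in the SePC-La pair. Its 3 groups did not overlap and stood in the same order as those of Ppbp. The log2 fold change was 1.19 in SePC-La against Laser (SE 0.30, adjusted p = 0.376 in limma), 1.95 against PC-La (SE 0.30, adjusted p = 0.115) and -0.76 in PC-La against Laser (adjusted p = 0.753).

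The signalling receptors of the family differed less. Cxcr2, the neutrophil receptor for the ELR ligands, had 4.36 and 0.744 FPKM in the Laser pair, 2.06 and 1.89 in the PC-La pair, and 4.84 and 5.13 in the SePC-La pair. Both SePC-La samples were the highest, but the log2 fold change of 0.97 against Laser (SE 0.50, adjusted p = 0.476) and of 1.01 against PC-La (SE 0.50, adjusted p = 0.264 in limma) did not meet the criterion. Cxcr3, the receptor for Cxcl9 and Cxcl10, had 1.73 and 0.491 FPKM in the Laser pair, 1.55 and 1 in the PC-La pair, and 0.12 and 1.75 in the SePC-La pair, with fold changes between -0.36 and 0.17. Cxcr4, the receptor for Cxcl12, had 13.9 and 6.46 FPKM in the Laser pair, 15.5 and 15.7 in the PC-La pair, and 13.1 and 15 in the SePC-La pair, and the difference from Laser was 0.65 in PC-La (adjusted p = 0.753 in limma) and 0.51 in SePC-La (adjusted p = 0.524). Cxcr6, the receptor for Cxcl16, had 2.73 and 0.968 FPKM in the Laser pair, 2.62 and 2.15 in the PC-La pair, and 0.968 and 2.34 in the SePC-La pair, with fold changes from -0.40 to 0.32. Cxcr1, Cxcr5 and the decoy receptor Ackr1 reached at most 0.683, 0.312 and 0.679 FPKM and were not tested.

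Among 5 proteases that shed or trim CXC ligands, 4 were tested and 1 met the criterion. Mmp8, the neutrophil collagenase, had 3.57 and 7.85 FPKM in the Laser pair, 1.5 and 1.46 in the PC-La pair, and 6.96 and 5.9 in the SePC-La pair. PC-La lay below both other groups, as in Pf4, and the log2 fold change was -1.36 against Laser (SE 0.30, adjusted p = 0.56 in limma) and 1.58 in SePC-La against PC-La (SE 0.30, adjusted p = 0.126). Of 13 genes that signal from these receptors, all tested, 11 had a positive log2 fold change in PC-La against Laser, 7 in SePC-La against Laser and 3 in SePC-La against PC-La, with medians of 0.13, 0.05 and -0.09 beside 0.00, -0.06 and -0.07 over all genes.

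Across the 6 samples the members fell together in small sets, which is given as a description because the samples share their groups. Pearson's correlation of log2(FPKM + 1) was 0.98 between Cxcl2 and Cxcl3, 0.95 between Cxcl1 and Cxcl2, 0.98 between Cxcl1 and Cxcl12, and 0.91 between Ppbp and Pf4. Ppbp also stood at 0.90 with Cxcl3 and at 0.30 with Cxcl5, its neighbour on the chromosome, while Pf4 and Cxcl16 stood at -0.73. The level of Pf4 was 3.8 and 12.4 times that of Ppbp in the Laser samples, 12.8 and 8.14 times in PC-La, and 3.81 and 5.03 times in SePC-La, so that the pair did not move in a fixed ratio. Cxcl9 was 1.36 to 2.39 times Cxcl10 in all samples.

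The genes of the table most like Ppbp over the 6 samples were Cnih1 (0.997), Lig1 (0.992) and Rap2b (0.988), and 24 of the tested genes exceeded 0.95. These moved over a far narrower range than Ppbp, with Cnih1 between 50 and 64.7 FPKM. Pf4 was most like Adipor2 (0.991), Ube2q2 (0.989) and Tpst2 (0.987), with 33 genes above 0.95. Those of Cxcl2 included Cdk9 (0.997) and Slc2a3 (0.991), with 61 genes above 0.95. Cxcl9 was most like Ptp4a3 (0.983), Spns2 (0.980) and Gpr19 (0.968), with 9 genes above 0.95. With so few samples in 3 groups many genes reach such values, and nothing is read from them about shared function.

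Counts of chemokines whose groups did not overlap were read beside the share of all genes. They were 5 of 9 in PC-La against Laser (42.0% of all genes), 6 of 9 in SePC-La against Laser (40.6%), all 6 higher, and 7 of 9 in SePC-La against PC-La (65.5%), 5 higher beside 26.0% of all genes and 2 lower beside 39.5%. The median log2 fold change of the 9 was 0.03 in PC-La against Laser beside 0.00 over all genes, 0.80 in SePC-La against Laser beside -0.06, and 1.66 in SePC-La against PC-La beside -0.07. Leaving out a Laser sample moved the first of these medians to 0.84 or to -0.87, so that no common direction was seen for the family in PC-La. The median in SePC-La against Laser was 1.54 without Laser replicate 1, 1.22 without SePC-La replicate 1 and 0.38 without SePC-La replicate 2, and that in SePC-La against PC-La ranged from 1.31 to 2.01.

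**Figure D4:**
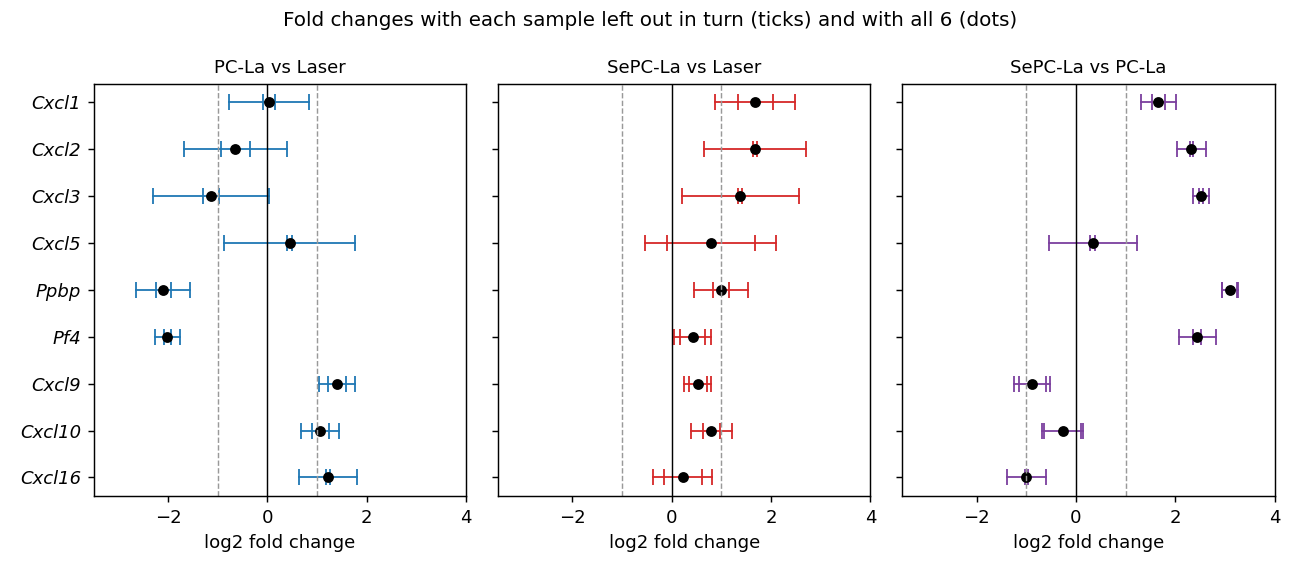
Log2 fold changes of the 9 tested chemokines with each compared sample left out in turn, as ticks joined by a line, and with all 6 samples, as black dots, on the log2(FPKM + 1) scale. Ppbp stays between -2.65 and -1.55 and Pf4 between -2.26 and -1.77 in PC-La against Laser, whereas Cxcl1, Cxcl2, Cxcl3 and Cxcl5 cross 0 there.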

How the data were processed

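Total RNA of 6 tumor samples was sequenced, 2 in each group. The authors deposited 1 table with a value for each gene and sample, whose unit is not named in the table. It was settled from the values as FPKM: multiplied by the merged exon length of GENCODE M21, 97.8% of the expressed genes gave whole fragments in all 6 samples, within 0.02 of a whole number. The submitters' processing notes name mm9, HISAT2 2.0.5, HTSeq 0.9.1 and DESeq 1.30.0. The deposited FPKM were used with no further scaling.

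Differences were tested with limma 3.58.1 in R 4.3.3, two-sided, on log2(FPKM + 1), where the mean over the samples reached 1 FPKM, with all 6 samples and 3 group means in the fit and empirical Bayes moderation with a trend and robust estimation (median of 6.4 degrees of freedom). The pseudocount understates the changes of low genes. Benjamini-Hochberg adjustment ran over all 10853 genes, also where the criterion of the study (absolute log2 fold change over 1, unadjusted p under 0.05) was applied. The fit was tested on simulated data in which all genes and samples shared a fixed spread, unlike the Laser samples here. That test therefore says nothing about the spread between the Laser samples.

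The members, the gene lists and the tests were chosen with earlier results of these data known. The text names all members, all other listed CXC ligands and receptors, proteases and signalling genes at the criterion, the 4 most abundant genes of a marker list, and for Ppbp, Pf4, Cxcl2 and Cxcl9 the 3 genes with the highest correlation. A few genes that this rule names are not reported here. The genes that check the tissue and the platelet glycoproteins were picked after their values were seen. Alternatives were a pseudocount of 0.1, no filter, a minimum mean of 5, median-ratio scaling, quantile normalization, no trend or robust estimation, only the 4 samples compared, the replicate number as a block, a log2 fold change of 0.58, each sample left out in turn, and, added after the data were seen, limma voom on the recovered fragments and ratios to summed markers. No count model was the main test, as FPKM are not counts. Python 3.11.15, pandas 2.3.3 and matplotlib 3.10.9 were used for tables and plots.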

Additional observations from a re-analysis of the deposited data

Results flagged for a closer look

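In 4 of 32 genes checked, Ppbp, Ackr3, Adam10 and Plcb2, both PC-La samples lay on the opposite side of both Laser samples from both SePC-La samples. All tested genes showed this pattern in 8.56% of cases, so the count is near the background. Between SePC-La and PC-La, Ppbp differed by a log2 fold change of 3.09 (adjusted p = 0.0868 in limma), and for Ackr3 it was 1.95 (adjusted p = 0.115). Adam10, the protease that sheds Cxcl16, had the reverse order, with 44.6 and 36.7 FPKM in the Laser pair, 52.5 and 58.1 in the PC-La pair, and 24.7 and 33.2 in the SePC-La pair, and a value of -0.92 (adjusted p = 0.126 in limma). Plcb2, a phospholipase activated by chemokine receptors, had 2 and 1.33 FPKM in the Laser pair, 2.15 and 2.46 in the PC-La pair, and 0.976 and 1.29 in the SePC-La pair, and a value of -0.63 (adjusted p = 0.15 in limma). For all 4 genes this fold change is itself the test of the difference between the groups.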

How the results depend on the processing

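Of 72 fold changes of single chemokines under other settings of the fit and the filter, 71 in PC-La against Laser, 65 in SePC-La against Laser and 72 in SePC-La against PC-La kept their direction and their side of the criterion. The count of chemokines at the criterion in SePC-La against Laser, 1 as reported, was 2 with a pseudocount of 0.1, quantile normalization, no trend or a fold threshold of 0.58, 3 with median-ratio scaling and with voom, and 0 with only the 4 samples compared. The deviations of same-numbered samples from their group means correlated at 0.0862, -0.428 and -0.177 between the groups. The labels do not say whether samples of equal number were paired, and these values cannot tell. With the block the counts were 4, 2 and 5, Cxcl2 was gained in SePC-La against Laser (1.68, with an unadjusted p of 0.0303 in limma) and Cxcl16 lost in PC-La against Laser (an unadjusted p of 0.0589).

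Leaving out a sample puts 1 in its group, which is then assumed to vary like the others. The number of all tested genes at the criterion also changed with the sample left out. The share of all genes without overlap is not given for these fits. The chemokine counts that follow therefore lack a background, and nothing about the family is read from their rise or fall. The counts ranged from 3 to 5 in PC-La against Laser, 0 to 5 in SePC-La against Laser and 2 to 4 in SePC-La against PC-La, and the counts without overlap in PC-La against Laser rose to 8 and 9 without a Laser sample, since fewer values have to agree. The median in PC-La against Laser ranged from -0.87 to 0.84. Fold changes in PC-La against Laser ranged from -0.78 to 0.84 for Cxcl1, -1.68 to 0.39 for Cxcl2, -2.31 to 0.04 for Cxcl3 and -0.87 to 1.76 for Cxcl5. In SePC-La against Laser they ranged from -0.53 to 2.10 for Cxcl5 and -0.37 to 0.81 for Cxcl16, and in SePC-La against PC-La from -0.55 to 1.22 for Cxcl5 and -0.69 to 0.15 for Cxcl10. Depth limits Ppbp in PC-La and Cxcl12, with 23 to 55 fragments in those samples, and fold changes of low genes depend on the pseudocount.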
